A study of Mus musculus with 47 samples.

Results

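The comparison described here is the step from ZT16 to ZT20 in muscle stem cells of mice on the control diet. Zeitgeber time (ZT) counts hours from lights on by convention, so both times lie in the dark phase, when mice are active. The arrays were chosen by their titles, 4 of control diet at ZT20 against 4 of control diet at ZT16, which are 8 of the 47 arrays of the series. All of these mice were female wild-type C57B6/J animals, 15 weeks old, that had eaten the control diet freely for 7 weeks from the age of 8 weeks. Gene expression was read on microarrays from RNA of the isolated cells, and all values below are the deposited log2 expression values, where a step of 1 is a doubling. The labels call the arrays of a group biological replicates, and p-values measure the spread between these samples. The series sampled 6 times of day on this diet and on a high-fat diet. The high-fat arrays of the same times, 3 at ZT16 and 4 at ZT20, come from mice of that strain, sex and age fed the high-fat diet over the same span. The mice of a time point were all collected on 1 day, with both diets on that day. ZT16 and ZT20 therefore also differ in the day of collection, and time and day cannot be told apart within a diet.

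Muscle stem cells, or satellite cells, lie under the basement membrane of muscle fibres and rest until damage or growth calls on them. Like most cells they carry a circadian clock. CLOCK or NPAS2 pairs with BMAL1 (the product of Arntl) and drives the Per and Cry repressor genes, the Nr1d receptors and the output factors Dbp, Tef and Hlf. The PER and CRY proteins then hold the pair back, and ROR and NR1D receptors set the level of Arntl and Npas2. Feeding, body temperature and glucocorticoid hormone also move with the active phase and reach cells outside the brain.

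Markers of other cell types were read per array before any change was counted, and 1 array stood apart. The mean of 11 tested endothelial genes, which mark the lining of blood vessels, was 7.21, 7.22, 7.15 and 7.13 (log2) in control ZT16 replicates 1 to 4. At control ZT20 it was 7.30, 9.12, 7.40 and 7.26. Replicate 2 of control ZT20 was thus above the other 46 arrays of the series, which lay between 7.00 and 7.65. Of 26 endothelial markers on the array, 25 were highest there among the 8 control arrays, and 16 were at least 2-fold above the mean of the other 3 ZT20 arrays. Cdh5, the cadherin of endothelial junctions, read 7.06, 9.57, 6.98 and 6.54 at ZT20, and Pecam1, an endothelial adhesion molecule, read 6.54, 9.11, 6.79 and 6.41. Kdr, the main VEGF receptor, was too dim on average to be tested and still read 7.58 in replicate 2 against 5.01 to 5.29 in the other control arrays. Ramp2 was the exception, at 12.5 in replicate 2 and 12.4 to 12.6 elsewhere.

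**Figure D1:**
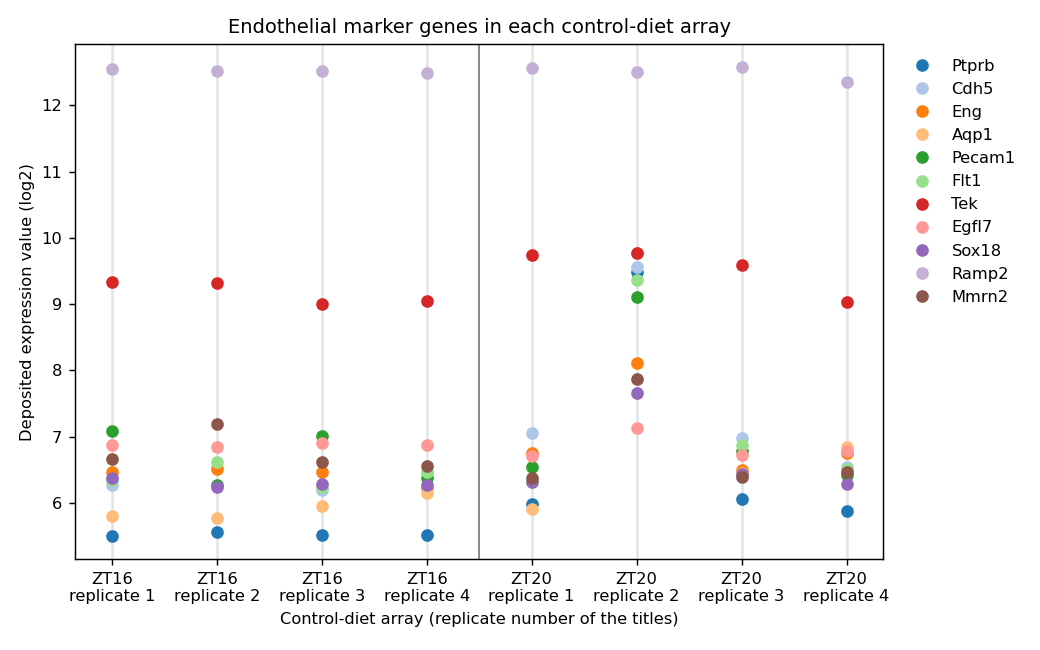
Deposited expression value (log2, vertical axis) of the 11 tested endothelial markers in each of the 8 control-diet arrays (horizontal axis), 1 point per gene. Most markers sit higher in control ZT20 replicate 2 than in the other 7 arrays, with Cdh5 at 9.57 there against 6.20 to 7.06.

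The same array also read high for immune markers, with a mean of 8.15 over 4 genes against at most 7.13 in the other 46 arrays. It was the highest of the 47 arrays for mature muscle fibre (7.23 over 21 genes), adipocyte (7.42 over 3) and erythroid (10.97 over 2) markers as well, although for muscle fibre by under 0.01. The erythroid mean reached 10.75 in another array. Of the adipocyte markers too dim to test, Adipoq and Lep read 4.38 and 4.19 there, within the other control arrays, while Fabp4, also an endothelial marker, read 10.49. The mean of control ZT20 replicate 2 for 10 satellite cell markers was 10.0, within the 9.89 to 10.1 of the other control arrays, so the labelled cell type was present in all 8. How the cells were purified is not given in the sources used here. Gene list counts below are given again without control ZT20 replicate 2 wherever they changed. In these bulk samples a change in the share of a cell type and a change of RNA level within cells cannot be told apart.

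On the control diet 557 of 10258 tested genes (5.43%) changed from ZT16 to ZT20 at an adjusted p under 0.05. Of these, 304 (2.96%) were higher and 253 (2.47%) lower at ZT20. The changes were small: the median size among called genes was 0.51 on the log2 scale, 206 passed 1.5-fold and 30 passed 2-fold. Among the 30, 22 rose and 8 fell, and 12 and 8 of them were still called without control ZT20 replicate 2. Without that array 336 genes (3.28%) were called, 182 higher and 154 lower, and 312 of them were among the 557. Leaving out control ZT16 replicate 4 gave 292. The arrays of both times did not overlap for 434 of the called genes and for 1161 of all 10258 tested (11.3%). The other steps between neighbouring control-diet times gave 573 (ZT4 to ZT8) to 1182 (ZT0 to ZT4) called genes. Called genes are those under that threshold in limma's moderated test over all 47 arrays. Each gene is given by its brightest probe set. Other probe sets are given for some genes only, and those not given can differ in size or sign. Counts in gene lists are to be read against the 2.96% of all tested genes that were higher and the 2.47% that were lower. Those without control ZT20 replicate 2 are to be read against 182 higher and 154 lower of 10258. Named genes kept their control-diet call without any 1 of the 8 control arrays unless stated otherwise, and changes are log2 differences with standard errors (SE), ZT20 minus ZT16.

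Of the 20 tested clock genes, 8 changed. Npas2, a partner of BMAL1, and Per1, a period repressor, were among 5 that rose, and Nr1d2 and Dbp were among 3 that fell. Read against 5.43% of all tested genes, this is a larger share, and the list's median change of 0.06 lay near the 0.00 of all tested genes while members moved in both directions. Without control ZT20 replicate 2 the counts were 5 and 2, with Tef lost. Npas2 read 7.89, 7.94, 7.84 and 7.74 at ZT16 and 8.52, 8.43, 8.75 and 8.71 at ZT20, a rise of 0.75 ± 0.10 (adjusted p = 6.42e-06). The groups did not overlap, and the lowest ZT20 array lay well above the highest ZT16 array. A second Npas2 probe set of similar brightness gave a larger rise, 1.55. Usp2, a deubiquitinase that acts on clock proteins, read 9.25, 9.23, 9.42 and 9.44 and then 9.91, 9.71, 9.99 and 10.03, a rise of 0.57 ± 0.08 (adjusted p = 1.08e-05).

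Per1, with 1 probe set, rose most within the list by the brightest probe set of each gene, although the second probe set of Npas2 rose more. It read 8.05, 8.51, 8.47 and 8.65 at ZT16 and 9.62, 9.39, 9.66 and 9.42 at ZT20, a rise of 1.10 ± 0.14 or 2.15-fold (adjusted p = 2.30e-06). All ZT20 arrays lay above all ZT16 arrays. Its control-diet means at ZT0, ZT4, ZT8 and ZT12 were 9.18, 8.71, 8.81 and 9.59, so ZT16, at 8.42, was the lowest of the 6 time points. Per2 did not pass the test, at 0.05 ± 0.16 (adjusted p = 0.901), and its ZT20 arrays spread from 9.78 to 10.49. A dimmer Per2 probe set gave -0.24. Per3 read 8.46 to 8.70 at ZT16 and 7.48 to 8.08 at ZT20 without overlap, and its difference of -0.85 ± 0.27 missed the threshold (adjusted p = 0.0567). Other Per3 probe sets gave -0.60 to -0.14.

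Csnk1e, a kinase that phosphorylates PER proteins, rose by 0.37 ± 0.08 (adjusted p = 0.00477), from 8.98 to 9.12 at ZT16 to 9.30 to 9.47 at ZT20. Rora, an activating receptor of the clock, rose by 0.28 ± 0.07 (adjusted p = 0.0134). Its call was lost without control ZT16 replicate 4 or control ZT20 replicate 1, with an adjusted p of up to 0.0751. Other Rora probe sets gave -0.03 to 0.76.

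Nr1d2, the REV-ERB beta repressor, read 9.11, 9.36, 9.29 and 9.18 at ZT16 and 8.29, 8.19, 8.23 and 8.98 at ZT20. It fell by 0.81 ± 0.13 (adjusted p = 0.000141), and replicate 4 of ZT20 lay closest to the ZT16 arrays. Dbp, a PAR bZIP output factor, read 7.62, 8.25, 7.80 and 8.00 and then 7.10, 7.16, 7.22 and 6.99, and fell by 0.80 ± 0.19 (adjusted p = 0.0104). From its control-diet mean of 8.54 at ZT12, Dbp stood at 7.92 at ZT16 and 7.12 at ZT20. Tef, of the same factor family, fell by 0.35 ± 0.10 (adjusted p = 0.0336), but lost the call without any 1 of control ZT16 replicates 1 or 3 or control ZT20 replicates 2 or 3, with an adjusted p of up to 0.116. Hlf, the third family member, differed by -0.30 ± 0.15 (adjusted p = 0.248).

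The 12 clock genes that did not pass included the core factors Arntl at -0.41 ± 0.33, Clock at 0.11 ± 0.18, Cry1 at 0.26 ± 0.12 and Cry2 at 0.07 ± 0.20. Arntl spread widely within both groups, from 8.86 to 9.55 at ZT16 and from 7.94 to 9.20 at ZT20. Its dimmer probe set gave 0.34, the opposite sign. The kinase Csnk1d differed by 0.05 ± 0.04 at a level of 12.1 to 12.3 at ZT16, and the repressors Bhlhe40 and Nfil3 differed by 0.14 ± 0.10 and 0.17 ± 0.07.

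**Figure D2:**
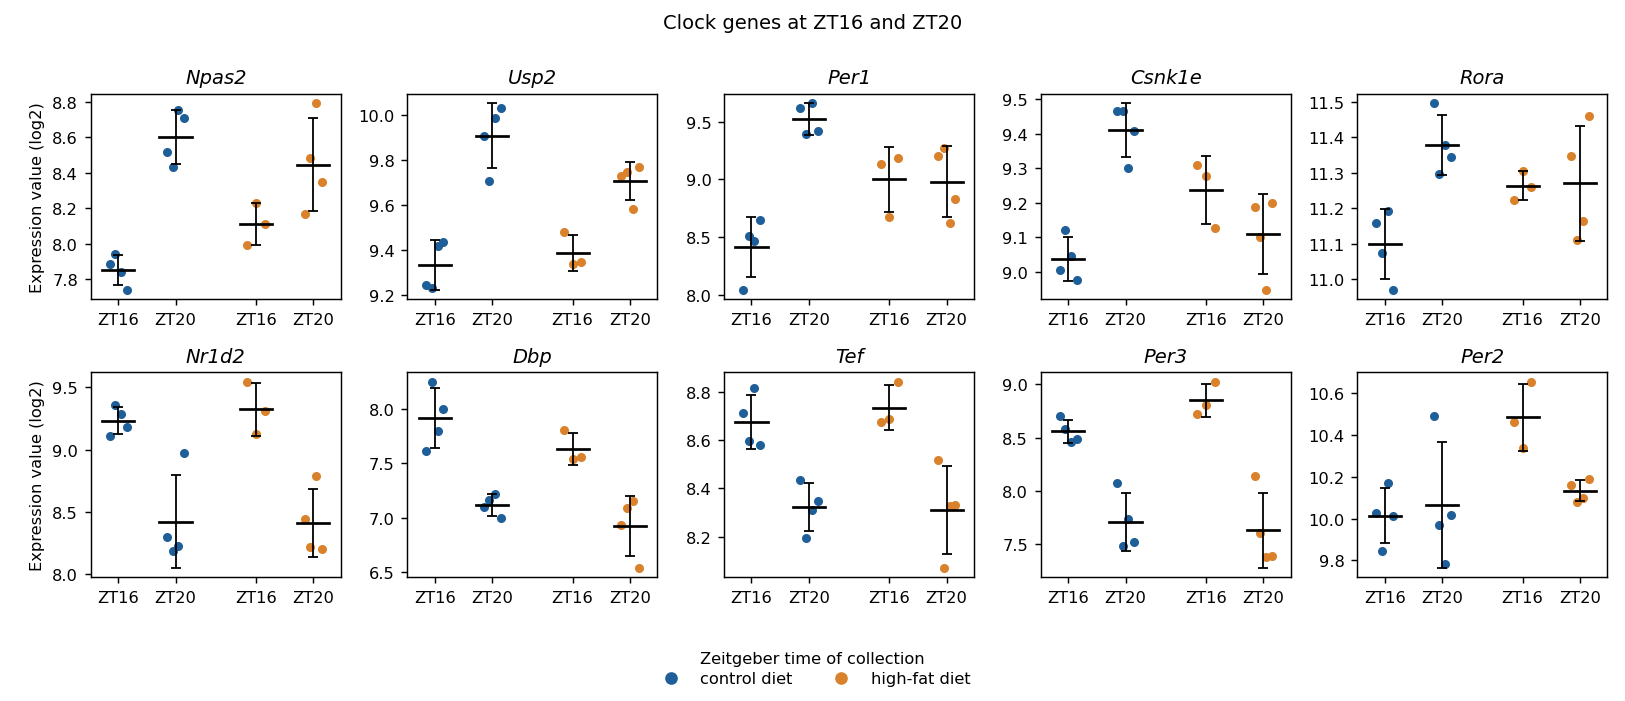
Deposited expression value (log2, vertical axes) of 10 clock genes at ZT16 and ZT20 (horizontal axes), 1 point per array, blue for the control diet and orange for the high-fat diet; black bars are means and whiskers SD (n = 4, and n = 3 at high-fat ZT16). On the control diet Npas2, Usp2, Per1 and Csnk1e rise and Nr1d2 and Dbp fall, while Per1 on the high-fat diet differs by -0.02 between the times.

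The promoters of the 8 clock genes that passed were searched on both strands, in RefSeq sequence of build GRCm38.p6, over the 250 bases before each start. The letters searched were the E-box CACGTG, which the CLOCK and BMAL1 pair binds, the D-box TTANGTAA of the PAR bZIP factors, and TNAGGTCA for ROR and NR1D receptors. A gene counts as holding a motif if any of its listed starts has it, while the shares are per promoter. Per1, before its upstream start only, and Tef held the E-box, which 6.02% of 32851 promoters hold. Per1 also held the receptor motif before that start, which 3.99% hold. The D-box, held by 2.06%, was found in none of the 8, and the other 6 genes held none of these letters in this window. The sequence before the upstream start of Per1, shown because it holds both motifs, lies at chr11:69098699-69098948 on the plus strand. Capitals mark the E-box, 166 bases before the start, and the receptor motif on the opposite strand, 137 bases before it.
Per1: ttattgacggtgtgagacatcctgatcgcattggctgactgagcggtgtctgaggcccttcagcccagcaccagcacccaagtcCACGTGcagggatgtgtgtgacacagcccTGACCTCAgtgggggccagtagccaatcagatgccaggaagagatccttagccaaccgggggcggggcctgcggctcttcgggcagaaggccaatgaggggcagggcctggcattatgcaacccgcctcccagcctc

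Heat shock proteins, the chaperones that refold damaged proteins, fell in 6 of 15 tested members and rose in 1, with a median change of -0.21 over the list. Lower at ZT20 were Hspa1b, Hsp90aa1, Hspb1, Dnaja1, Dnajb1 and Cryab, and the co-chaperone Dnajb4 was higher, against 2.47% and 2.96% of all tested genes. Without control ZT20 replicate 2 the counts were 4 lower and 1 higher, with a median of -0.17. Hsp90aa1, an HSP90 gene, and Cryab, a small heat shock protein, were the 2 lost there, with adjusted p of 0.0948 and 0.167. Cryab also lost its call without any 1 of control ZT16 replicates 1, 3 or 4 or control ZT20 replicate 1. Dnajb4 lost its call without any 1 of control ZT16 replicates 3 or 4 or control ZT20 replicates 1 or 3.

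Dnajb1, the main inducible partner of HSP70, read 10.71, 10.90, 10.73 and 10.89 at ZT16 and 10.20, 10.25, 10.19 and 10.48 at ZT20. It fell by 0.53 ± 0.07 or 1.44-fold (adjusted p = 2.67e-06), and its other probe set gave -0.65. Hspb1, a small heat shock protein, read 11.76, 11.83, 11.74 and 11.85 and then 11.34, 11.30, 11.28 and 11.50, and fell by 0.44 ± 0.06 (adjusted p = 2.80e-05). In both genes the ZT20 arrays lay below all ZT16 arrays, and replicate 4 was the highest of the ZT20 arrays. The other 3 Hspb1 probe sets gave -0.48 to -0.63. Dnaja1, another HSP40 co-chaperone, read 10.83, 11.07, 10.82 and 10.88 and then 10.54, 10.46, 10.53 and 10.62, a fall of 0.36 ± 0.06 (adjusted p = 5.26e-05). Hspa1b, an inducible HSP70, read 11.92 to 12.03 and then 11.73 to 11.87, a fall of 0.18 ± 0.04 (adjusted p = 0.00429). Hspa1b has a near-identical neighbour, Hspa1a, and the array may not separate them. It was also measured at 11.9 on average, near the upper end of the deposited values, and its dimmer probe sets gave -0.48 and -0.71.

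**Figure D3:**
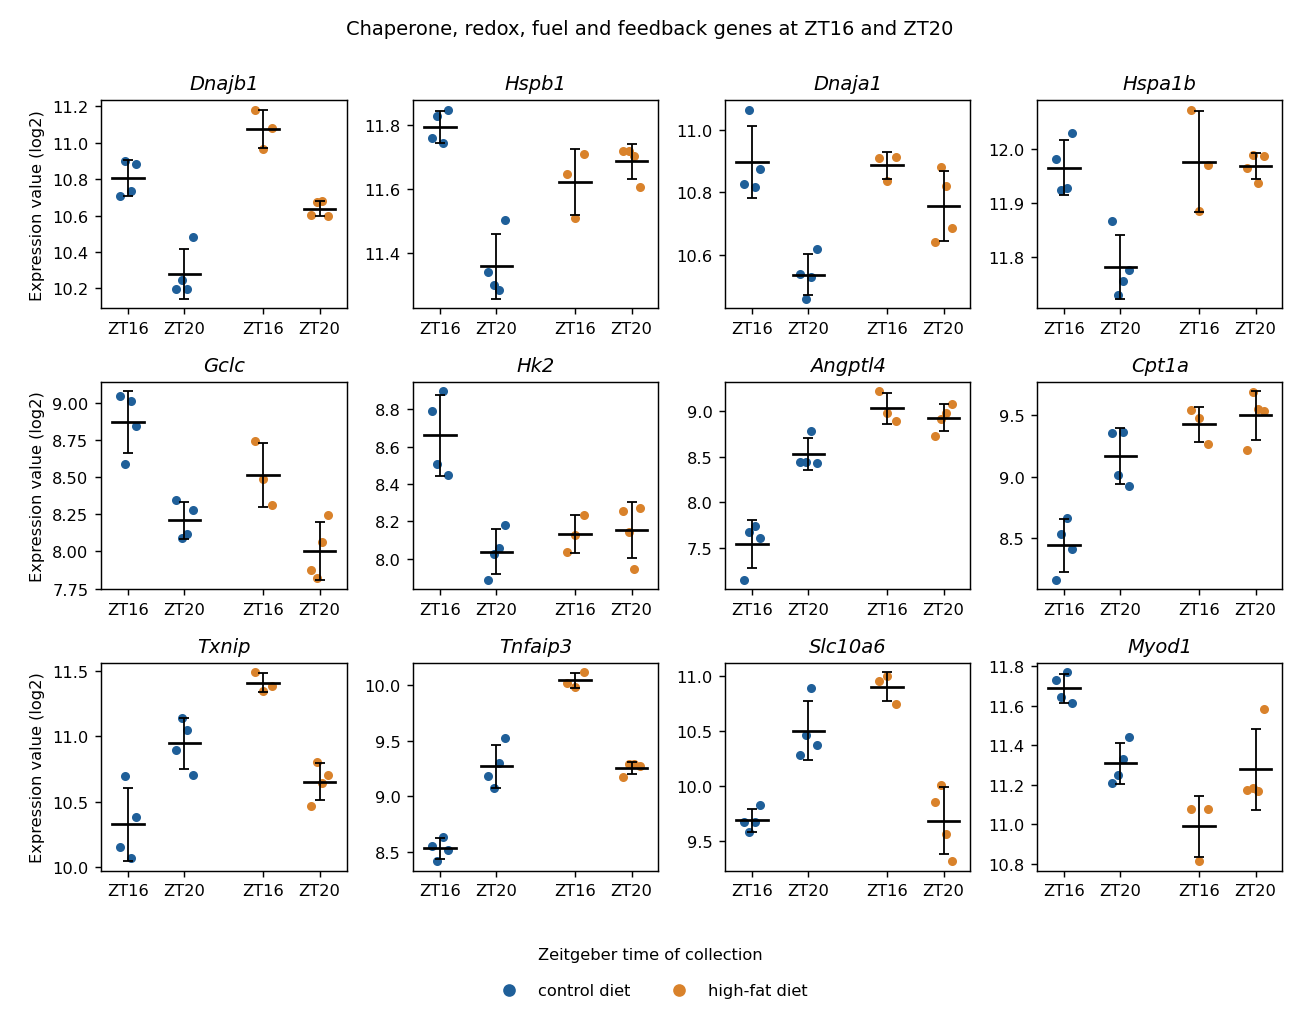
Deposited expression value (log2, vertical axes) of 12 genes at ZT16 and ZT20 (horizontal axes), 1 point per array, blue for the control diet and orange for the high-fat diet; black bars are means and whiskers SD (n = 4, and n = 3 at high-fat ZT16). On the control diet the 4 chaperone genes, Gclc, Hk2 and Myod1 are lower and the other 5 genes higher at ZT20, without overlap of the arrays.

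Heat shock factor binds inverted repeats of GAA. The letters GAANNTTC were searched after the values were seen, over the same 250 bases, and 6.69% of 32851 promoters hold them. Of the 7 called heat shock genes, 5 have a promoter entry. Hspb1, Dnaja1 and Hspa1b, which fell together, held the motif, and Dnajb1 and Dnajb4 did not. Dnaja1 held it only before the most upstream of its listed starts. The 3 promoters follow, with the motif in capitals. Hspb1 (chr5:135887669-135887918, plus strand) holds it at 117 and 97 bases before the start, Dnaja1 (chr4:40722218-40722467, plus strand) at 124 and Hspa1b (chr17:34959239-34959488, minus strand) at 104.
Hspb1: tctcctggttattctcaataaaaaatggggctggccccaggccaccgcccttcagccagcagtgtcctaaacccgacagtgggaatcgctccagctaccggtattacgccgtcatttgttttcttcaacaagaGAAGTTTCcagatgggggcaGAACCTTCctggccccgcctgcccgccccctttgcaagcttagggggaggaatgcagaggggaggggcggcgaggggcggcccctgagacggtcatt
Dnaja1: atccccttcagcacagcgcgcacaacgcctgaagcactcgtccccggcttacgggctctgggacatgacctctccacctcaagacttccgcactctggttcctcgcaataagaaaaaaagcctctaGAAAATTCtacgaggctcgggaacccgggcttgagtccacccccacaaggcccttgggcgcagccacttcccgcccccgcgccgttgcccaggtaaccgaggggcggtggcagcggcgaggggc
Hspa1b: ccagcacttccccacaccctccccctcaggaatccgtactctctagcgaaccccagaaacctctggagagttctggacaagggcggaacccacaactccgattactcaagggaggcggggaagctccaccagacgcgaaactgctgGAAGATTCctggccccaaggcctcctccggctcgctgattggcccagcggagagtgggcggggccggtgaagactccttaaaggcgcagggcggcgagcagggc

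Of 17 antioxidant and NRF2 target genes, 4 fell and none rose (median -0.10), against 2.47% lower among all tested genes. Without control ZT20 replicate 2, 3 fell, against 154 lower among all 10258 tested genes in that fit. Gclc, the catalytic subunit of the enzyme that limits glutathione synthesis, read 9.04, 8.59, 9.01 and 8.84 and then 8.35, 8.09, 8.12 and 8.28, a fall of 0.66 ± 0.13 (adjusted p = 0.000929). Its regulatory subunit Gclm fell by 0.49 ± 0.13 (adjusted p = 0.0191), a call lost without control ZT16 replicate 1 or control ZT20 replicates 1 or 2 (adjusted p up to 0.0696). The peroxide-reducing Prdx1 fell by 0.32 ± 0.08 (adjusted p = 0.0103; 0.0557 without control ZT20 replicate 3). Srxn1, which restores oxidised peroxiredoxins, fell by 0.92 ± 0.23 (adjusted p = 0.012; 0.0846 without control ZT16 replicate 4). In the arrays, Gclc was lower in each ZT20 array than in any ZT16 array.

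Of 35 proteasome genes, 3 fell and none rose, and 31 had a negative difference (median -0.16). Without control ZT20 replicate 2, 2 fell, Psmd11 and a member outside these 3. Without control ZT16 replicates 2, 3 or 4 only Psmd11 fell. Psmd11, a lid subunit of the 26S proteasome, read 9.65, 9.74, 9.64 and 9.85 and then 9.24, 9.18, 9.06 and 9.26, a fall of 0.54 ± 0.10 (adjusted p = 0.00116). Its 4 other probe sets gave -0.52 to 0.08, the dimmest of them near 0. The catalytic subunit Psmb5 and the ATPase Psmc3 fell by 0.49 ± 0.14 and 0.33 ± 0.10, and each lost its call without 1 of several arrays, control ZT20 replicate 2 included (adjusted p up to 0.106 and 0.158). Of 26 genes of the unfolded protein and integrated stress response, 3 fell (Pdia6, Dnajc3 and Sesn2) and 1 rose (Ppp1r15a), and 22 had a negative difference. A second Sesn2 probe set gave 0.06. All 4 lost the call without control ZT20 replicate 2, which left 0 of 26 called in limma's test (7 at an unadjusted p under 0.05). Each also lost it without any 1 of several other control arrays (adjusted p up to 0.078 for Pdia6, 0.112 for Dnajc3, 0.105 for Sesn2 and 0.218 for Ppp1r15a). Without control ZT20 replicate 2 the difference of Pdia6 went from -0.49 to -0.51 and that of Dnajc3 from -0.33 to -0.32. The list's median was -0.14 with and without that array.

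Mitochondrial and ribosomal genes gave few calls, all of them falls. Oxidative phosphorylation had 5 of 69 genes lower and none higher (median -0.09), a larger share than the 2.47% lower among all tested genes. Of the 69, 53 had a negative difference. The count was 3 without control ZT20 replicate 2 and 2 without control ZT16 replicates 2 or 3 or control ZT20 replicates 1 or 3. The complex I subunits Ndufb7 and Ndufs3 fell by 0.60 ± 0.12 (adjusted p = 0.00202) and 0.47 ± 0.10 (adjusted p = 0.00477). Ndufb7 read 9.01 to 9.40 at ZT16 and 8.38 to 8.75 at ZT20, and Ndufs3 read 8.59 to 8.76 and 7.92 to 8.37, both without overlap. A dimmer probe set of Ndufb7 gave -0.13. Of 69 mitochondrial ribosomal proteins 2 were lower (1 without control ZT16 replicates 2 or 4), near the share of all tested genes, and 46 had a negative difference. Of 67 cytosolic ribosomal proteins limma called none (3 at an unadjusted p under 0.05). Among 38 ribosome biogenesis genes 3 fell, of which Ltv1, a factor of small subunit assembly, fell by 0.67 ± 0.15 (adjusted p = 0.00559). The list's median of -0.08 became 0.01, and its count 2, without control ZT20 replicate 2. The count was 1 to 5 as single arrays were left out, with 1 without control ZT16 replicates 3 or 4 or control ZT20 replicate 3.

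**Figure D4:**
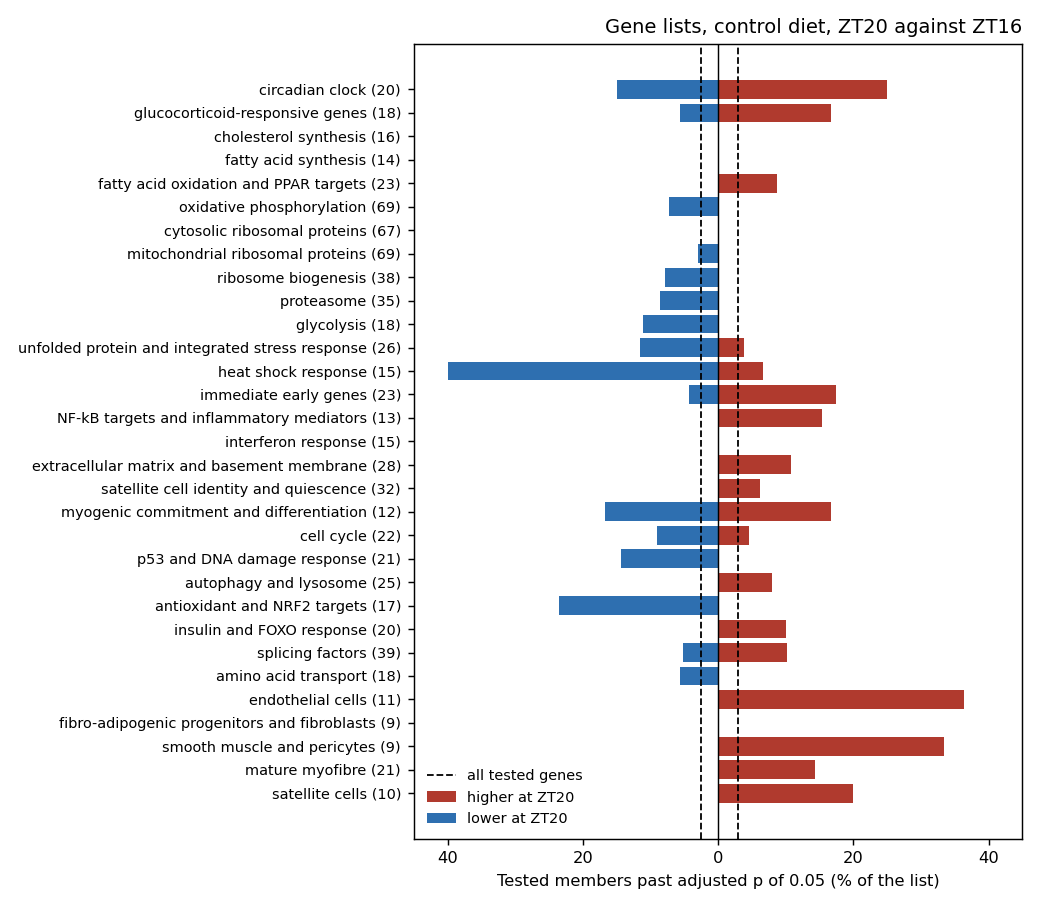
Share of each gene list (number tested in brackets) that was higher (red, to the right) or lower (blue, to the left) at control ZT20, in % of tested members; dashed lines mark all tested genes, 2.96% higher and 2.47% lower. The circadian clock has 5 higher and 3 lower of 20, heat shock 1 higher and 6 lower of 15, and the 4 endothelial calls of 11 were all lost without control ZT20 replicate 2.

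Fuel genes moved in both directions. Hk2, a hexokinase that phosphorylates glucose, read 8.79, 8.50, 8.90 and 8.45 at ZT16 and 7.89, 8.03, 8.05 and 8.18 at ZT20, a fall of 0.62 ± 0.11 (adjusted p = 0.000622). The glucose carrier Slc2a1 was the only other member of 18 glycolysis genes to pass, at -0.34 ± 0.09 (adjusted p = 0.0224), and lost its call without control ZT16 replicates 1 or 2 or control ZT20 replicates 2 or 3 (adjusted p up to 0.112), which left Hk2 alone without control ZT20 replicate 2. Of 23 genes of fatty acid oxidation and PPAR targets, 2 rose and none fell. Cpt1a, which passes long-chain fatty acids into mitochondria, read 8.16, 8.53, 8.66 and 8.41 and then 9.35, 9.02, 9.37 and 8.92, a rise of 0.72 ± 0.14 (adjusted p = 0.00131). Angptl4, a secreted inhibitor of lipoprotein lipase, read 7.15, 7.67, 7.74 and 7.61 and then 8.44, 8.44, 8.78 and 8.43, a rise of 0.98 ± 0.19 or 1.97-fold (adjusted p = 0.00157). The arrays of both genes did not overlap. Limma called none of 16 cholesterol synthesis genes (0 at an unadjusted p under 0.05) and none of 14 fatty acid synthesis genes (2 at that p).

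Among 20 genes of the insulin and FOXO response, 2 rose and none fell (median 0.02), against 2.96% higher among all tested genes, and 1 rose without control ZT16 replicate 4. Txnip, an inhibitor of glucose uptake and thioredoxin, read 10.15, 10.70, 10.06 and 10.38 and then 10.89, 11.14, 11.05 and 10.70, a rise of 0.62 ± 0.12 (adjusted p = 0.00116). The highest ZT16 array and the lowest ZT20 array nearly touched, and a dimmer probe set gave 0.22. Foxo1, a transcription factor that insulin signalling shuts out of the nucleus, rose by 0.48 ± 0.11 (adjusted p = 0.00901; 0.0633 without control ZT16 replicate 4). Of 25 autophagy and lysosome genes, Ulk1 and Gabarap rose, at 0.31 ± 0.08 and 0.24 ± 0.06. Ulk1 lost its call without control ZT16 replicate 4 or control ZT20 replicate 3, and Gabarap without control ZT16 replicate 1 or control ZT20 replicate 4 (adjusted p up to 0.0787 and 0.0641).

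Glucocorticoid-responsive genes rose in 3 of 18 (Per1, Klf9 and Foxo1) and fell in 1 (Sgk1), with a median of 0.07, against 2.96% higher and 2.47% lower among all tested genes. The rises were 2 without control ZT16 replicates 2 or 4 or control ZT20 replicate 1. Sgk1, a kinase of the AKT-related family, read 11.26 to 11.48 and then 10.90 to 11.19, a fall of 0.31 ± 0.06 (adjusted p = 0.00136). Klf9 rose by 0.13 ± 0.03 (adjusted p = 0.0114), a call lost without control ZT16 replicate 2 or control ZT20 replicate 1 (adjusted p up to 0.0599). Other Klf9 probe sets gave 0.06 to 0.54. The known hormone targets Tsc22d3 and Zbtb16 did not pass, at 0.01 ± 0.18 and 0.47 ± 0.26. Among 23 immediate early genes, which cells switch on within minutes of a stimulus, 4 rose and 1 fell, and 2 and 1 without control ZT20 replicate 2. Fosl2, an AP-1 subunit, read 10.96, 10.90, 10.91 and 10.84 and then 11.37, 11.23, 11.42 and 11.14, a rise of 0.39 ± 0.06 (adjusted p = 5.26e-05). The orphan nuclear receptor Nr4a3 rose by 0.47 ± 0.11 (adjusted p = 0.00809). Ier3 and Junb, at 0.39 ± 0.10 and 0.27 ± 0.08, lost their calls without control ZT20 replicate 2, at adjusted p of 0.0786 and 0.117. Ier3 also lost it without control ZT16 replicate 4 (0.0883), and Junb without 4 further arrays (control ZT16 replicates 1 and 2 and control ZT20 replicates 1 and 3). The fall of Atf3, a stress-induced factor, by 0.19 ± 0.05 was lost without any 1 of 4 arrays (adjusted p up to 0.0928).

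Feedback inhibitors of NF-kB, the inflammatory transcription factor, made up both calls among 13 NF-kB targets and inflammatory mediators. Tnfaip3, the ubiquitin-editing enzyme A20, read 8.55, 8.42, 8.64 and 8.52 and then 9.18, 9.07, 9.30 and 9.52, a rise of 0.74 ± 0.13 (adjusted p = 0.000224). Its ZT20 arrays lay above all ZT16 arrays, and a dimmer probe set gave 0.32. Nfkbie, an inhibitor that holds NF-kB in the cytoplasm, rose by 0.72 ± 0.18 (adjusted p = 0.0144), which became 0.64 (adjusted p = 0.0601) without control ZT20 replicate 2. That array also carried the highest immune marker mean. Limma called none of 15 interferon response genes (1 at an unadjusted p under 0.05).

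Among genes of muscle lineage, Myod1, the transcription factor that commits satellite cells to muscle, read 11.73, 11.64, 11.77 and 11.61 at ZT16 and 11.21, 11.25, 11.33 and 11.44 at ZT20. It fell by 0.38 ± 0.09 (adjusted p = 0.00951), with no overlap. Id2, an inhibitor of MYOD1-type factors, fell too, by 0.46 ± 0.11 (adjusted p = 0.0104). Mef2c and Mef2d, late factors of muscle differentiation, rose by 0.41 ± 0.11 and 0.26 ± 0.08, and each lost its call without 1 of at least 5 arrays (adjusted p up to 0.129 and 0.145). Their other probe sets gave -0.09 to 0.04. In the list for identity and quiescence of satellite cells, 2 of 32 rose and none fell (median 0.08). Des, the muscle intermediate filament, read 9.63, 9.53, 9.94 and 9.64 and then 10.42, 10.25, 10.49 and 10.09, a rise of 0.63 ± 0.11 (adjusted p = 0.000249). Sdc4, a heparan sulfate receptor on satellite cells, rose by 0.21 ± 0.05 (adjusted p = 0.00609) with overlapping arrays, 12.05 to 12.25 and 12.22 to 12.38. Des also counts among the markers of smooth muscle and of mature fibre used here. Of 21 fibre markers 3 rose (Des, Pvalb and Tnnt3), and the mean of the 21 was 6.89 to 7.23 at ZT16 and 7.18 to 7.23 at ZT20. Tnnt3 lost its call without control ZT20 replicate 2 or control ZT16 replicate 1 (adjusted p up to 0.129).

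Cell cycle genes gave 1 rise and 2 falls in 22. Cdk2, a kinase of S phase entry, read 7.44 to 7.56 and then 7.97 to 8.11, a rise of 0.55 ± 0.12 (adjusted p = 0.00555). Pcna and Aurka fell by 0.20 ± 0.06 and 0.43 ± 0.13, with overlapping arrays, and lost their calls without control ZT20 replicate 2 and without several other arrays (adjusted p up to 0.173 and 0.166). Of 21 p53 and DNA damage genes 3 fell, and 2 without control ZT20 replicate 2. Gadd45b, a stress sensor, fell by 0.56 ± 0.12 (adjusted p = 0.00559), from 9.91 to 10.23 at ZT16 to 9.36 to 9.66 at ZT20. Pmaip1, the death-promoting NOXA, read 7.71, 6.87, 6.89 and 6.83 and then 6.11, 5.82, 6.43 and 6.05, a fall of 0.97 ± 0.22 (adjusted p = 0.0069). Among 39 splicing factors, Hnrnpa2b1, Hnrnpd, Hnrnpk and Hnrnpl rose and Srsf6 and Snrpb fell. Srsf6, a serine-rich splicing factor, fell by 0.44 ± 0.07 (adjusted p = 5.26e-05), from 10.44 to 10.75 to 10.10 to 10.26. Hnrnpd, an RNA-binding protein also called AUF1, rose by 0.36 ± 0.09 (adjusted p = 0.00809). Hnrnpl and Hnrnpa2b1 rose by 0.23 ± 0.05 and 0.25 ± 0.06, but other probe sets of these 2 genes gave -0.21 to 0.03. The Hnrnpk rise of 0.26 ± 0.06 was lost without control ZT16 replicate 4 or control ZT20 replicate 1 (adjusted p up to 0.0751), and the Snrpb fall of 0.25 ± 0.06 without 3 arrays (up to 0.105).

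The largest rises were in part those of vessel-associated genes. Apold1, an endothelial stress gene, read 5.05, 5.13, 5.48 and 5.54 at ZT16 and 7.38, 8.92, 7.21 and 6.00 at ZT20, a rise of 2.07 ± 0.37 or 4.21-fold (adjusted p = 0.000415). Without control ZT20 replicate 2, the highest array, it was 1.56 (adjusted p = 0.00607). Ptprb, the vascular tyrosine phosphatase VE-PTP, read 5.50 to 5.56 at ZT16 and 5.99, 9.48, 6.06 and 5.88 at ZT20. Its difference of 1.33 ± 0.39 (adjusted p = 0.0327) became 0.45 (adjusted p = 0.207) without replicate 2. Cdh5 went from 1.18 ± 0.35 to 0.50 (adjusted p = 0.297), and Ceacam1, an adhesion molecule, from 1.17 ± 0.34 to 0.64 (adjusted p = 0.262). These 3 calls were also lost without any 1 of the ZT16 arrays. Other Ceacam1 probe sets gave 0.05 to 1.22. Lamb1, a laminin chain of basement membrane, went from 1.11 ± 0.27 to 0.82 (adjusted p = 0.0824), and its other probe sets gave 0.17 to 0.41. Over the 11 endothelial markers the counts were 4 higher with that array (Cdh5, Eng, Ptprb and Aqp1) and 0 of 11 without it or without any 1 of the ZT16 arrays, and without replicate 2 the median went from 0.53 to 0.15. Without replicate 2 the 4 genes had limma adjusted p of 0.207 to 0.352, and 2 of the 11 markers were at an unadjusted p under 0.05. Of 28 genes of extracellular matrix and basement membrane 3 rose (Col5a1, Lamb1 and Loxl1), and 1 without that array: Col5a1, a fibrillar collagen chain, at 0.49 ± 0.11 (adjusted p = 0.00706). Loxl1 also lost its call without any 1 of control ZT16 replicates 1, 3 or 4 or control ZT20 replicate 1. The Schwann cell markers Mag and Pmp22, 2 of 7 that rose, were both lost without control ZT20 replicate 2 (adjusted p = 0.076 and 0.0623).

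A set of smooth muscle and pericyte markers, cells that wrap small vessels, was higher at ZT20 in all 4 arrays. The mean of its 9 tested genes was 8.45, 9.14, 8.31 and 9.17 at ZT16 and 9.40, 9.34, 9.32 and 9.25 at ZT20. ZT16 fell into a lower pair (replicates 1 and 3) and a higher pair (replicates 2 and 4), and no ZT16 array reached the ZT20 range. With and without control ZT20 replicate 2, 3 of the 9 rose: Kcnj8, Des and Ebf1. Ebf1, a transcription factor of mural and adipose precursors, read 5.87, 7.10, 5.88 and 6.48 and then 7.57, 8.49, 8.10 and 7.95, a rise of 1.69 ± 0.31 or 3.23-fold (adjusted p = 0.000522). Its dimmer probe sets gave 0.95 and 0.65. Kcnj8, a pericyte potassium channel, read 6.19, 6.75, 5.68 and 7.26 and then 7.75, 8.05, 7.69 and 7.48, a rise of 1.27 ± 0.32 (adjusted p = 0.0125; 0.0724 without control ZT16 replicate 3). The part of a changed cell mixture in these rises was not tested. The fibroblast and tenocyte means also reached 9.41 and 7.70 in control ZT20 replicate 2. Among the other 46 arrays of the series these means reached 9.51 and 7.87.

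Other large rises were spread over genes of different kinds. Bmp5, a bone morphogenetic protein, rose by 1.34 ± 0.31 (5.07 to 5.80, then 6.48 to 7.29), but its 2 other, similarly dim probe sets gave -0.05 and 0.17. Rinl, a Ras and Rab interactor, rose by 1.30 ± 0.21 (5.57 to 6.04, then 6.63 to 7.47), with -0.02 and 0.17 at its other probe sets. Gcc1, a coiled-coil protein of the Golgi, rose by 1.26 ± 0.20 (5.70 to 6.19, then 7.09 to 7.66). Mex3a, an RNA-binding protein of stem and progenitor cells, rose by 1.13 ± 0.16 (adjusted p = 1.48e-05). It read 7.44, 7.23, 7.89 and 7.10 at ZT16 and 8.57, 8.47, 8.56 and 8.56 at ZT20, and its other probe set gave 1.56. Hoxc8, a homeobox gene of body position, rose by 1.07 ± 0.17, from 7.78 to 8.49 to 9.04 to 9.29. It came in among the 10 largest rises once control ZT20 replicate 2 was left out (1.11, adjusted p = 0.000335). The transcript 2010320M18Rik and the zinc finger gene Zfp386 rose by 1.16 ± 0.23 and 1.11 ± 0.27, and a second Zfp386 probe set gave 0.45. Morn1 rose by 1.12 ± 0.29 and lost its call without control ZT16 replicate 4 or control ZT20 replicate 2 (adjusted p 0.104 and 0.0652).

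Among the largest falls, Neu2, a cytosolic sialidase, read 7.55, 6.57, 7.19 and 7.05 at ZT16 and 5.92, 5.10, 6.02 and 5.19 at ZT20, a fall of 1.53 ± 0.25 (adjusted p = 0.000132). Sphk2, a kinase that makes sphingosine 1-phosphate, read 8.79, 8.82, 8.97 and 8.89 and then 7.74, 7.64, 7.89 and 7.13, a fall of 1.27 ± 0.18 or 2.41-fold (adjusted p = 1.48e-05). Its control-diet mean was 9.87 at ZT12, 8.87 at ZT16, 7.60 at ZT20 and 6.92 at ZT0. Its other probe set, far dimmer at 5.64, gave 0.27. Sgms2, a sphingomyelin synthase, fell by 0.92 ± 0.18 (9.90 to 10.38, then 8.94 to 9.70). Gal, the neuropeptide galanin, read 10.15, 9.75, 9.89 and 9.95 and then 9.04, 8.54, 8.94 and 8.56, a fall of 1.16 ± 0.18 or 2.24-fold (adjusted p = 8.35e-05). All 4 genes had ZT20 arrays below every ZT16 array, which the rule for naming the largest changes required.

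Spata4 fell by 1.39 ± 0.31 and Pced1a by 1.34 ± 0.28, though a second Pced1a probe set gave -0.27. Pcdh17, a protocadherin, fell by 1.34 ± 0.35 (-0.79 at a second probe set). The Pcdh17 call was lost without control ZT16 replicates 1 or 3 or control ZT20 replicate 1 (adjusted p up to 0.0915). Alkbh7, a mitochondrial dioxygenase, fell by 1.03 ± 0.19 (7.43 to 7.80, then 6.25 to 6.82), Nifk, a nucleolar protein, by 1.00 ± 0.21, and Rad18, a ubiquitin ligase of DNA damage tolerance, by 0.95 ± 0.20. Fam204a split at ZT20 into 7.06 and 7.08 (replicates 1 and 3) and 5.76 and 5.81 (replicates 2 and 4), against 7.49 to 7.89 at ZT16, and fell by 1.29 ± 0.24. Its 2 dimmer probe sets gave -0.02 and 0.01. Zc3h12c, a zinc finger RNase, fell by 0.93 ± 0.21 (-0.01 at a far dimmer probe set). Usp14, a deubiquitinase of the proteasome, fell by 0.99 ± 0.27 (adjusted p = 0.0242), and its difference was -0.62 (adjusted p = 0.176) without control ZT20 replicate 2. That call was also lost without control ZT16 replicates 1, 2 or 4. Zfp319, among the 10 largest falls once that array was left out, fell by 0.84 ± 0.22 and lost its call without control ZT16 replicate 1 or control ZT20 replicates 1 or 3 (adjusted p up to 0.0783). Its dimmer probe sets gave -0.06 and 0.11.

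The same step on the high-fat diet was measured in other mice collected on the same days. There 1339 genes (13.1%) changed, 637 higher (6.21%) and 702 lower (6.84%). That count fell to 652 without high-fat ZT16 replicate 3. In a test of the difference itself, the change from ZT16 to ZT20 differed between the diets for 700 genes (6.82%), of which 383 were more positive and 317 more negative on the control diet. Without high-fat ZT16 replicate 3 or 1 there were 376 or 443, and without control ZT20 replicate 2 there were 526. Called on both diets were 131 genes, which are 23.5% of the control calls and 9.78% of the high-fat calls. Of these, 101 moved the same way and 30 the opposite way. The change differed between diets for 154 of the 557 control calls, against 700 of all 10258 tested genes. Both tests use the same control arrays and are not independent, so a larger share among the control calls is no separate result.

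Several clock genes passed on both diets. Npas2 and Usp2 rose by 0.33 ± 0.11 and 0.32 ± 0.08 on the high-fat diet, and Nr1d2, Dbp and Tef fell by 0.91 ± 0.14, 0.70 ± 0.21 and 0.42 ± 0.11. The high-fat calls of Npas2, Usp2, Dbp and Tef were each lost without high-fat ZT16 replicate 3, and those of Npas2 and Dbp also without others (adjusted p up to 0.166). For none of these 5 did the change differ between diets at the threshold (adjusted p = 0.0741 to 0.891). Per1 and Csnk1e were the clock genes whose change differed. Per1 read 9.13, 8.68 and 9.19 at high-fat ZT16 and 9.20, 9.27, 8.62 and 8.83 at ZT20, a difference of -0.02 ± 0.15, and the control change exceeded it by 1.12 ± 0.20 (adjusted p = 0.000381). At ZT16 the lowest high-fat array, at 8.68, lay above the highest control array, at 8.65. For Csnk1e the control change exceeded the high-fat one by 0.50 ± 0.12 (adjusted p = 0.00877).

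The 10 genes with the smallest p for a diet difference all fell on the high-fat diet and on the control diet either rose or did not pass. Zbtb16, a zinc finger factor induced by glucocorticoid, read 9.43, 8.38, 9.42 and 9.05 at control ZT16 and 9.31, 9.85, 9.91 and 9.09 at control ZT20. On the high-fat diet it read 10.99, 10.52 and 10.40 and then 8.14, 8.39, 8.12 and 7.63, so its changes of 0.47 ± 0.26 and -2.57 ± 0.28 differed by 3.04 ± 0.39 (adjusted p = 1.66e-06). Tsc22d3, the glucocorticoid-induced leucine zipper, changed by -2.28 ± 0.19 on the high-fat diet against 0.01 ± 0.18 on control. Trp53inp1, a p53-induced stress gene, fell by 2.45 ± 0.15 there, against a difference of -0.12 ± 0.13. In all 3 the high-fat mean was above the control mean at ZT16 and below it at ZT20 (9.59 and 7.30 for Tsc22d3, 10.28 and 7.82 for Trp53inp1).

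For 4 of the 10 genes opposite changes passed on each diet. Tnfaip3 rose by 0.74 on control and fell by 0.79 ± 0.14 on the high-fat diet, from 9.99 to 10.11 at ZT16 to 9.17 to 9.29 at ZT20, which brought the diets to means of 9.27 and 9.25. Txnip rose by 0.62 and fell by 0.76 ± 0.13. Slc10a6, a transporter of sulfated steroids, read 9.58 to 9.83 and then 10.29 to 10.90 on control, a rise of 0.82 ± 0.15, and fell by 1.22 ± 0.16 on the high-fat diet. Sash1, a scaffold protein, rose by 0.36 ± 0.08 and fell by 0.70 ± 0.08. Foxo3, Usp54 and Mss51 fell by 0.85 ± 0.07, 2.07 ± 0.20 and 1.12 ± 0.14 on the high-fat diet and did not pass on control, at 0.19 ± 0.07, 0.29 ± 0.19 and 0.35 ± 0.13. Outside these 10, Myod1 fell on control and rose by 0.29 ± 0.10 on the high-fat diet (adjusted p = 0.0455, lost without any 1 of 4 high-fat arrays, up to 0.256: ZT16 replicates 1, 2 and 3 and ZT20 replicate 4). The difference of its changes was -0.67 ± 0.13 (adjusted p = 0.00173).

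**Figure D5:**
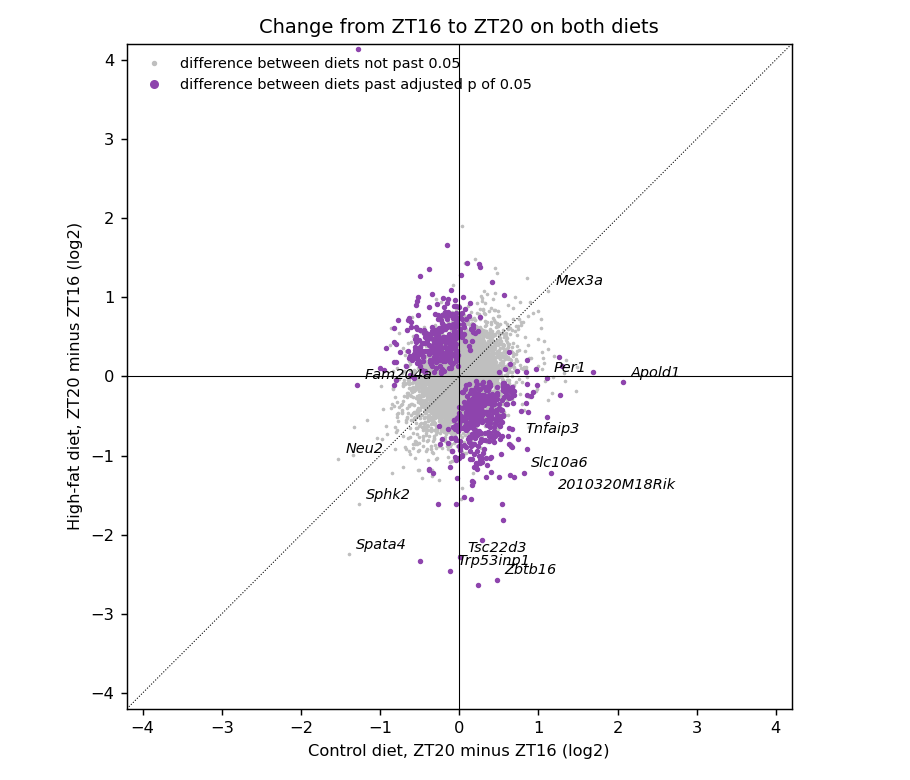
Change from ZT16 to ZT20 (log2) on the control diet (horizontal axis) against that on the high-fat diet (vertical axis), 1 point per tested gene; purple marks the 700 genes whose change differs between diets, the dotted line marks equal change. Zbtb16, Tsc22d3 and Trp53inp1 lie far below 0 on the high-fat axis, at control changes of 0.47, 0.01 and -0.12, and Apold1 is far to the right with a high-fat change of -0.07.

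Heat shock genes had 1 of 15 lower on the high-fat diet, a share near the 6.84% of all tested genes. It was Dnajb1, which fell by 0.44 ± 0.07 there, and the diet difference for Dnajb1 did not pass (adjusted p = 0.649). Hspb1 differed between diets by -0.50 ± 0.09 (adjusted p = 0.000694), with 11.51 to 11.71 at high-fat ZT16 and 11.61 to 11.72 at ZT20. Gclc fell on both diets (by 0.51 ± 0.14 on high-fat, adjusted p 0.00908, and 0.094 without high-fat ZT16 replicate 1). Hk2, Angptl4 and Cpt1a had high-fat differences of 0.02 ± 0.12, -0.11 ± 0.21 and 0.07 ± 0.15. The tests of the difference passed, at adjusted p of 0.0149, 0.0158 and 0.0481, but each was lost without high-fat ZT16 replicate 1 (highest adjusted p 0.0504, 0.0553 and 0.122), and that of Cpt1a without 10 other arrays. In each of the 3 genes the high-fat level at ZT16 already lay near the control level of ZT20 or past it, at 8.13, 9.03 and 9.43 against 8.04, 8.52 and 9.17.

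Sphk2, Mex3a, Spata4 and Neu2 moved the same way on both diets, the high-fat call of Neu2 being lost without high-fat ZT16 replicate 2 (adjusted p = 0.0767). Their high-fat changes were -1.62 ± 0.19, 1.08 ± 0.17, -2.24 ± 0.34 and -1.04 ± 0.27, and the diet difference passed for none of them (adjusted p = 0.288 to 0.941). Apold1 differed between diets by 2.15 ± 0.54 (adjusted p = 0.0123; 0.0656 without high-fat ZT16 replicate 1). Ebf1 differed by 1.64 ± 0.45 (adjusted p = 0.021), lost without control ZT20 replicate 2, high-fat ZT16 replicates 1 or 3 or high-fat ZT20 replicate 4 (up to 0.0622). The smooth muscle and pericyte mean was 8.39 to 8.80 in the high-fat ZT16 arrays and 8.30 to 9.06 at high-fat ZT20, below the 4 control ZT20 arrays. Des differed between diets by 0.80 ± 0.16 (adjusted p = 0.0016).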

How the data were processed

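Expression microarrays were read in 47 samples of muscle stem cells, after amplification of 25 ng of RNA. Per the labels and the submitters' processing notes, the authors deposited log2 expression values and the notes name RMA; no version or settings of it are stated there. The deposited values were used as they stand. Probe sets were named through the platform annotation: 28898 of 45141 had 1 gene symbol, 551 several and 15588 none, and only the first kind was used. For each of 17097 genes the brightest probe set was kept, and the 10258 genes at or above the 40th percentile of mean level (5.80) were tested.

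Models were fitted with limma 3.58.1 (R 4.3.3): lmFit on 12 group means over all 47 arrays, eBayes with a trend, and Benjamini-Hochberg adjustment over 10258 genes at 0.05. The contrasts were ZT20 minus ZT16 on each diet and their difference. The script was tested on simulated data. The number of arrays limits the precision, with a median SE of 0.13 for a control change.

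Named genes were the tested clock genes, the 15 largest rises and falls among called genes without overlap, the 4 smallest p of each list, the 10 smallest p for a diet difference and the endothelial markers; the 10 largest without control ZT20 replicate 2 were added. Called list members outside these were named after their values were seen. The comparison and all lists were chosen with earlier results of these data known. Same-numbered arrays were checked for pairing: the correlations of their deviations were 0.0338, 0.0439, 0.107 and 0.088, so numbers were not used as pairs. Alternatives were fewer or other arrays, a replicate block, array weights, other filters, scalings and probe set rules, and marker means as covariates.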

Additional observations from a re-analysis of the deposited data

Results flagged for a closer look

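Single arrays stood apart from the other 3 of their group in 21 of 258 groups of values among the named genes. Chance gives about 1 in 20 for independent groups that were not selected. The named genes include the endothelial markers and the largest changes, so the 21 cannot be judged against that rate. Control ZT20 replicate 2 held 11 of the 21. It was the highest of its group for the endothelial genes Pecam1 (9.11), Ptprb (9.48), Eng (8.12), Egfl7 (7.13), Sox18 (7.66) and Mmrn2 (7.87), for the adhesion gene Ceacam1 (8.27) and for the fibre gene Tnnt3 (6.90). It was the lowest for Mex3a (8.47), Usp14 (5.82) and Nr4a3 (10.56). At control ZT20, replicate 4 was highest for Nr1d2 (8.98) and replicate 3 for Gcc1 (7.66) and Angptl4 (8.78). At control ZT16, replicate 2 was highest for Bhlhe40 (10.20), Ceacam1 (5.60) and Mmrn2 (7.20) and lowest for Sgms2 (9.90). Replicate 1 was highest for Pmaip1 (7.71), and replicate 4 was lowest for Ndufc2 (9.32) and Ppp1r15a (10.18).

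For 43 named genes the test of the difference passed between the control change and the high-fat change (log2, control minus high-fat). Of these, 24 kept the call without any 1 of the 15 arrays. Among them the control change was the more positive by 1.12 for Per1, 0.50 for Csnk1e, 2.38 for 2010320M18Rik, 1.62 for Lamb1, 0.69 for Foxo1, 0.22 for Klf9, 0.49 for Fosl2, 1.52 for Tnfaip3, 0.80 for Des and 0.27 for Sdc4. It was also more positive by 1.38 for Txnip, 0.90 for Lipe, 2.34 for Trp53inp1, 1.04 for Foxo3, 1.06 for Sash1, 2.03 for Slc10a6, 2.29 for Tsc22d3, 2.36 for Usp54, 3.04 for Zbtb16 and 1.47 for Mss51. It was the more negative for 4 genes, with differences of -1.28 for Zc3h12c, -0.70 for Psmd11, -0.50 for Hspb1 and -0.67 for Myod1. The other 19 lost the call without at least 1 array. Their differences were 2.15 for Apold1, 1.64 for Ebf1, 1.17 for Rinl, 1.505 for Kcnj8, 1.02 for Gcc1, 0.65 for Cpt1a, 1.09 for Angptl4, 0.65 for Cdk2, 0.45 for Ulk1, 0.70 for Pvalb, 0.77 for Tnnt3 and 1.51 for Pecam1 where control was the more positive. They were -1.19 for Fam204a, -1.11 for Nifk, -1.03 for Rad18, -0.80 for Ltv1, -0.88 for Dkc1, -0.65 for Hk2 and -0.81 for Slc7a5 where it was the more negative.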

How the results depend on the processing

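The control count of 557 genes was 235 when only the 8 arrays compared were fitted and 325 with the endothelial mean as a covariate, and 292 to 606 when 1 of the 8 arrays was left out (lowest without control ZT16 replicate 4, highest without control ZT20 replicate 4). With the replicate number as a block it was 507. Array weights gave 815, the mean of probe sets 690, and the other filters and scalings 489 to 577. On the high-fat diet 1339 genes became 2018 with array weights, 1189 with the replicate block and 652 to 1212 without 1 array. The 700 diet differences became 1186 with array weights, 591 with the block and 376 to 865 without 1 array. None of the 104 called named genes reversed its direction, and 40 of them were called under every alternative chosen at the outset. Some genes that did not pass, such as Clock, Per2 and Cry2, changed sign when 1 control array was left out. Depth has no counterpart here; dim probe sets limit the values near the filter of 5.80.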
